A study of Mus musculus with 2 samples.

Results

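The carboxylesterases described here are 10 mouse genes, *Ces1a* to *Ces1g* (7 genes of the *Ces1* group) and *Ces2c*, *Ces2e* and *Ces2g* of the *Ces2* group. They were picked for the low signal of *Ces1d* in *Bmal1*-deficient hearts, so the difference between genotypes is given for them as a description. All 10 were found on the array, through 13 probes whose transcript accession belongs to 1 of these genes. A gene counted as measured where at least 1 of its probes was well above background, as flagged by the scanner software, on at least 1 array. By that rule 13846 genes were measured in all, with 5 of the 10 among them.

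The RNA came from the left ventricle of male mice aged 12 weeks, collected at ZT 2, where ZT 0 is lights on. *H-Bmal1*-/- mice carry a floxed *Bmal1* gene, which encodes a transcription factor of the circadian clock, together with a Cre recombinase driven by the αMHC promoter, which is active in cardiomyocytes. Their littermate controls had the floxed gene without Cre, although their label reads wildtype, so loss of *Bmal1* and presence of Cre cannot be told apart. RNA of 6 animals per genotype was pooled, and each pool was hybridized to 1 single-color Agilent array. With 1 array per genotype the differences have no replicate check, no test was possible, and no p-value is given. As all RNA was from ZT 2, a shifted daily peak or trough cannot be told apart from a level changed throughout the day. The paper states a limit of this kind for its arrays.

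Carboxylesterases are serine hydrolases of the endoplasmic reticulum that cleave ester bonds in drugs, pesticides and lipids, and are best known from liver and intestine. Most are held in the lumen by a short signal at the end of the protein that KDEL receptors recognize, and some mouse members are secreted into plasma. *Ces1d* encodes triacylglycerol hydrolase, which in liver releases fatty acids from stored triacylglycerol for lipoprotein assembly and in adipocytes takes part in basal lipolysis.

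The targeted gene itself, listed as *Arntl*, had a processed signal of 328 in the *H-Bmal1*-/- pool, against 513 in the control pool, a log2 ratio of -0.80. Its single probe may lie outside the deleted part, so the value does not check the deletion. The scanner software flagged 29672 of 59305 noncontrol spots on the *H-Bmal1*-/- array and 29288 on the control array as well above background, and 0 as saturated. Log2 ratios below are the *H-Bmal1*-/- pool minus the control pool, after subtraction of the 75th percentile of log2 signals on the same array (a processed signal of 190 on the *H-Bmal1*-/- array and 171 on the control array). The median log2 ratio of all measured genes was -0.01 and the median absolute ratio 0.19, and 51.6% of them had a ratio below 0. Between spots of 1 probe, over 56 dim probes with a signal below 100 that are printed at least 8 times, the SD of the log2 ratio had a median of 0.18 and reached 0.43.

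*Ces1d* was far lower in the *H-Bmal1*-/- pool than in the control pool. Its spot had a processed signal of 73.8 ± 7.86 in the *H-Bmal1*-/- pool, against 1979 ± 198 in the control pool, where the error is that of the scanner software for 1 spot. The unprocessed median pixel was 95 over a local background of 27 on the *H-Bmal1*-/- array, against 1898 over 26 on the control array. Both spots were well above background, so that the difference was measured on both sides and is no bound. On the log2 scale the level was -1.37 in the *H-Bmal1*-/- pool and 3.53 in the control pool, a ratio of -4.90 ± 0.21 (software error of the pair of spots). *Ces1d* was thus 29.8-fold lower, at 3.36% of the control level. The value moved to 16.0-fold lower after a normexp background correction, which adds an offset of 50 and draws dim signals together. In bulk tissue, fewer cells of a type and less RNA per cell cannot be told apart. With ZT 2 as the only time, the same holds for a shifted daily rhythm and a lower level throughout the day.

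Among the 13050 genes well above background on both arrays, *Ces1d*, picked for this low value, had the lowest log2 ratio. It kept this rank under each of the 11 other settings tried, several of which could not change it. Settings that multiply a whole array by a constant keep all ranks. Settings on filters, probes or outlier spots left the value of *Ces1d* the same, since it rests on 1 probe and 1 spot per array. A reduction of at least 4-fold was seen in 23 of these genes and of at least 8-fold in 4. The gap to the next gene was 1.03 on the log2 scale. That gene, *2210407C18Rik*, had a ratio of -3.86, with levels of -3.89 in the *H-Bmal1*-/- pool and -0.03 in the control pool. Other genes close to *Ces1d* by the size of the ratio over these 2 arrays were *Kcnv2*, a modifier subunit of voltage-gated potassium channels (-2.81), *Ddc*, which encodes aromatic L-amino acid decarboxylase (-2.74), and *Pfkfb1*, a bifunctional regulator of glycolysis (-2.61). After the normexp correction the ratios were -1.78 for *2210407C18Rik*, -1.55 for *Kcnv2*, -1.09 for *Ddc* and -2.05 for *Pfkfb1*. In the plot of all measured genes, *Ces1d* stands apart from the gray points.

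**Figure D1:**
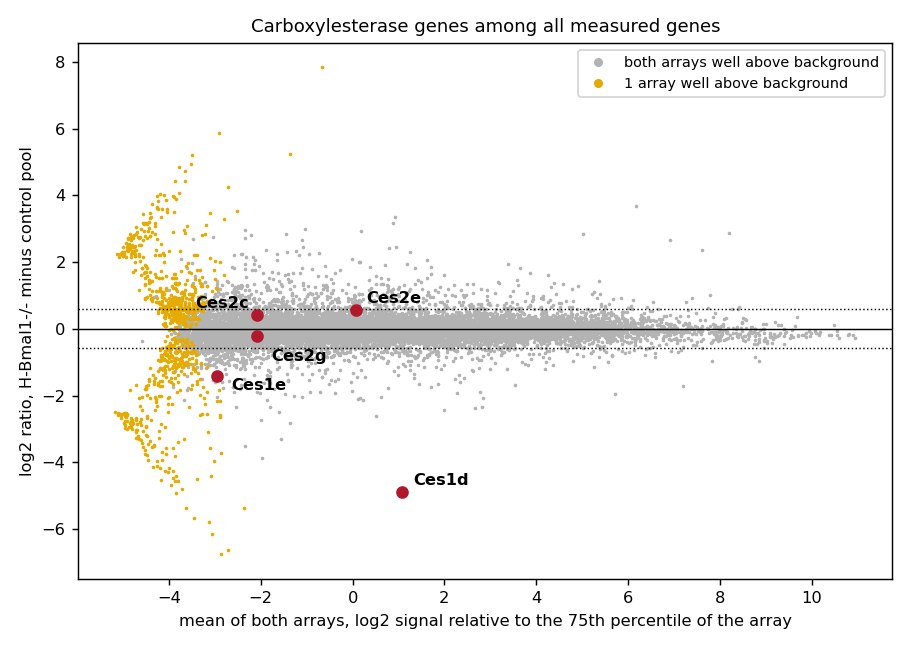
Vertical axis, log2 ratio (*H-Bmal1*-/- minus control pool) of all genes measured, against the mean log2 signal relative to the 75th percentile of the array (horizontal axis); gray points were well above background on both arrays, yellow points on 1 array only, where the plotted ratio is not a measured difference on both sides. The dotted lines mark 1.5-fold, and of the 5 carboxylesterases in red, *Ces1d* lies at -4.90 and *Ces1e* at -1.40 while *Ces2g*, *Ces2c* and *Ces2e* lie between the lines.

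*Ces1e*, which encodes the esterase known as egasyn, an anchor of β-glucuronidase in the endoplasmic reticulum, was the only other *Ces1* gene measured. Its processed signal was 15.0 ± 2.92 in the *H-Bmal1*-/- pool, against 35.7 ± 4.36 in the control pool, both well above background. The log2 ratio was -1.40 ± 0.33, or 2.64-fold lower, and 1.05% of all measured genes had a lower one. The signal of the *H-Bmal1*-/- pool lay close to the lowest signal counted as well above background, 11.1 on either array. After the normexp correction the ratio was -0.43, which is short of 1.5-fold. The median pixel was 39 over a local background of 24 on the *H-Bmal1*-/- array and 59.5 over 23 on the control array, so that the lower value was visible before any scaling.

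The other 5 *Ces1* genes, each with 1 probe, were not well above background on either array. These were *Ces1a*, *Ces1b*, *Ces1c*, which encodes a carboxylesterase of mouse plasma, *Ces1f*, a second triacylglycerol hydrolase of mouse liver, and *Ces1g*, a liver enzyme also called esterase-x. Their processed signals lay between 2.18 and 2.45 over both arrays. At this signal no ratio can be given, and a difference in these genes was not detectable.

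The *Ces2* members, all 3 measured, had small ratios in both directions, and their difference from the *Ces1* genes could not be tested. *Ces2e*, annotated as a pyrethroid hydrolase, had a processed signal of 241 ± 24.2 in the *H-Bmal1*-/- pool, against 148 ± 15.0 in the control pool. Its log2 ratio was 0.55 ± 0.21, 1.47-fold higher, and 6.76% of measured genes had a higher one. *Ces2c*, which in mouse liver and intestine hydrolyzes acylglycerols as well as drugs, had 51.6 ± 5.87 in the *H-Bmal1*-/- pool, against 35.0 ± 4.51 in the control pool. Its ratio of 0.41 ± 0.25 is a 1.33-fold higher value. *Ces2g* had 42.0 ± 5.05 in the *H-Bmal1*-/- pool, against 43.5 ± 5.18 in the control pool, and its ratio of -0.20 ± 0.24 was smaller than its spot error. These 3 ratios lay within 1.5-fold, *Ces2e* just so. With no scaling between the arrays, which moves the median of all genes to 0.14, *Ces2e* reached a ratio of 0.70 and passed 1.5-fold.

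Not every probe of a *Ces2* gene gave a signal. *Ces2c* has 3 probes, and 2 of them were not well above background on either array, with signals of 2.38 on both arrays for A_52_P318361 and of 3.67 in the *H-Bmal1*-/- pool and 2.76 in the control pool for A_55_P2124712. The value of *Ces2c* therefore rests on A_55_P2005213 alone. *Ces2e* has 2 probes, of which A_51_P179919 gave 3.31 in the *H-Bmal1*-/- pool and 2.52 in the control pool, not well above background, and A_55_P1959500 carries the reported value. All 5 measured genes thus rest on 1 probe and 1 spot per array. Carboxylesterase paralogs are close in sequence, and whether a probe also binds the transcript of a paralog was not tested, because probe sequences were not used here.

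**Figure D2:**
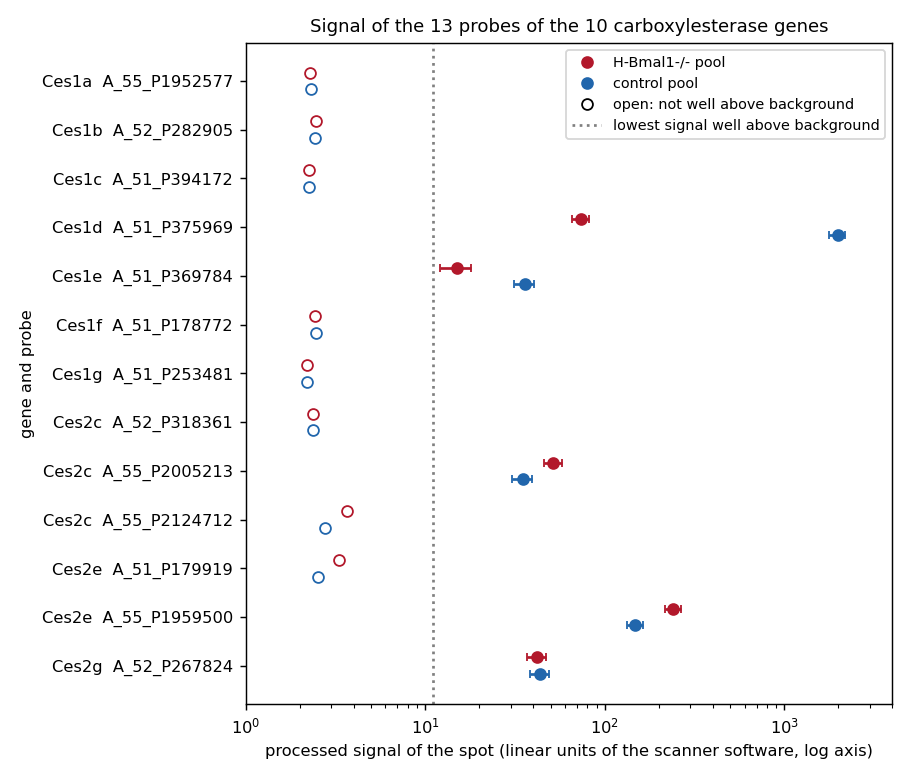
Processed signal (horizontal log axis, linear units of the scanner software) of each probe of the 10 carboxylesterase genes in the *H-Bmal1*-/- pool (red, upper point) and the control pool (blue, lower point), with the software error of the spot for filled points; open points were not well above background. The *Ces1d* points are widely separated at 73.8 in the *H-Bmal1*-/- pool and 1979 in the control pool, and 8 probes lie left of the dotted line at the lowest signal well above background.

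Counted by a fixed size of 1.5-fold, 2 of the 5 measured members were lower in the *H-Bmal1*-/- pool, *Ces1d* and *Ces1e*, and 0 were higher, whereas 5.85% of all measured genes were lower and 6.15% higher by that size. Nothing is read from this count, since the genes were picked on the same ratio. The median log2 ratio of the 5 members was -0.20, which is the value of *Ces2g*.

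Mouse carboxylesterase genes lie in 2 clusters on chromosome 8. In the RefSeq order the first cluster holds 9 genes, *Ces1a* to *Ces1h* and *Ces5a*, with *Ces1d* and *Ces1e* as direct neighbors among the family. The 2 members lower by 1.5-fold therefore lie side by side, between genes that were not well above background. The second cluster holds 11 genes, including *Ces2c*, *Ces2e* and *Ces2g* with other *Ces2* genes between them. Of the 20 family genes in this order, 17 have a probe matched here, and of the 10 outside the members, *Ces1h*, *Ces2h* and *Ces2d-ps* were not analysed here.

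None of the other 7 family genes with a probe (8 probes) was well above background on either array. *Ces2f* came closest, with a processed signal of 2.49 in the *H-Bmal1*-/- pool and 12.3 in the control pool, where the software called the spot positive but not well above background. *Ces2b* had 7.24 in the *H-Bmal1*-/- pool and 6.35 in the control pool. The remaining genes, *Ces2a*, *Ces3a*, *Ces3b*, *Ces4a* and *Ces5a*, also lay near background, and no ratio is given for any of the 7. Of the nearest protein-coding genes outside the first cluster, *Slc6a2*, which encodes the noradrenaline transporter, was not measured. *Gnao1*, which encodes a G protein α subunit, had a ratio of 1.04, and its lowest value under the other settings was 0.45. Beside the second cluster, *Ciao2b*, of cytosolic iron-sulfur protein assembly, had 0.34 and *Cbfb*, a partner of RUNX factors, 0.18. The cluster of *Ces1d* and *Ces1e* thus has 1 measured neighbor, which was higher in the *H-Bmal1*-/- pool.

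**Figure D3:**
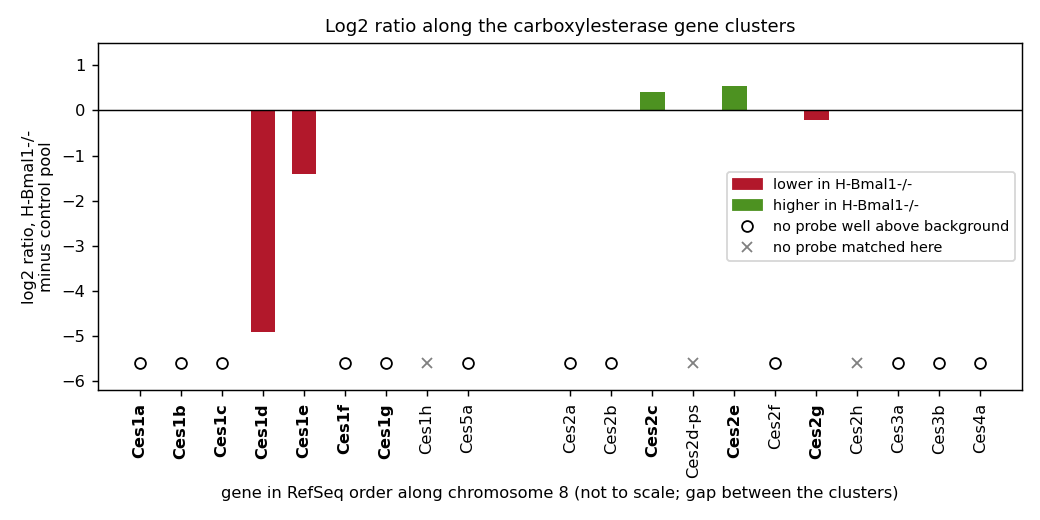
Log2 ratio, *H-Bmal1*-/- minus control pool (vertical axis), of the carboxylesterase genes in their RefSeq order on chromosome 8 (horizontal axis, not to scale), with members in bold; circles mark genes with no probe well above background and crosses genes with no matched probe. The adjacent *Ces1d* and *Ces1e* point down to -4.90 and -1.40, and the *Ces2* bars lie between -0.20 and 0.55.

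The promoters of the members were read for letters bound by clock factors, since the study deleted 1 such factor. RefSeq promoter sequences (GRCm38.p6) were at hand for 8 of the 10 members; *Ces1d* and *Ces1f* have no entry. Over 250 bases upstream of the gene start and on both strands, the E-box CACGTG, the motif of BMAL1 with CLOCK, was found in 0 of the 8, against 6.86% of all 27025 genes. The core of the ROR and REV-ERB element, TAGGTCA, was likewise found in 0 of the 8, against 2.55% of all genes. The D-box TTATGTAA (TTACATAA on the other strand), the motif of the PAR bZIP factors DBP, HLF and TEF, was found in 5 of the 8, against 0.977% of all genes. This motif was chosen after the sequences had been seen, and the 5 genes are paralogs with related promoters, so the count is a description only.

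The 5 genes with a D-box were all of the *Ces1* group, and *Ces1e* was the only measured gene among them. Each stretch of 40 bases is shown to let the shared motif, in capitals, be seen in its context. All lie on the minus strand and read toward the gene in the 5′ to 3′ direction, at chr8:93048367-93048406 (*Ces1a*), chr8:93080001-93080040 (*Ces1b*), chr8:93131354-93131393 (*Ces1c*), chr8:93229677-93229716 (*Ces1e*) and chr8:93337418-93337457 (*Ces1g*).
Ces1a: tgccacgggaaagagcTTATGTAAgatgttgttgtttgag
Ces1b: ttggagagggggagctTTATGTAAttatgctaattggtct
Ces1c: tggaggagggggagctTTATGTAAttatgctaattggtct
Ces1e: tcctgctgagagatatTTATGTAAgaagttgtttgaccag
Ces1g: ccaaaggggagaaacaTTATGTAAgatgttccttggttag

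The motif started 81 bases before the gene start in *Ces1e*, 84 in *Ces1b*, 94 in *Ces1c*, 198 in *Ces1a* and 232 in *Ces1g*. The *Ces1b* and *Ces1c* stretches were nearly the same, with 37 of 40 bases identical, whereas *Ces1e* shared 23 of 40 with *Ces1a* and 16 of 40 with *Ces1b*. A match gives the letters only and does not show binding. *Ces1e* was the member lower by 1.5-fold in the *H-Bmal1*-/- pool whose promoter was at hand. Its whole 250 bases at chr8:93229620-93229869 (minus strand) are given, with the D-box in capitals.
Ces1e upstream: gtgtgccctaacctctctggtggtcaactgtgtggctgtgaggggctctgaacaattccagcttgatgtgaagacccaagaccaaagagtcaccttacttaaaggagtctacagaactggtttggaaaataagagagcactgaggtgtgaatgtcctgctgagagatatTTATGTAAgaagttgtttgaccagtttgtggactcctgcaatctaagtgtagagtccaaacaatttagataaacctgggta

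The transcription factors known to act on carboxylesterase genes, a list of 17 with clock factors and lipid-sensing receptors, had 13 measured members. Of these, 7 were lower and 6 higher, with a median of -0.09 that turned to 0.07 with no scaling. Over all measured genes, 51.6% were lower. By 1.5-fold *Arntl* was lower (-0.80) and none was higher, against 5.85% of all measured genes lower and 6.15% higher by that size. Nothing is read from these counts. The highest was the *Arntl* partner *Clock* (0.50), which passed 1.5-fold with no scaling (0.65). The 3 PAR bZIP genes, named for the D-box after their values had been seen, had ratios of -0.52 (*Hlf*), -0.36 (*Dbp*) and -0.09 (*Tef*, 0.06 with no scaling). Whether any of these factors bears on the values of *Ces1d* or *Ces1e* was not tested.

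Genes that act on the same substrates were described from lists. Of 26 neutral lipid hydrolases and their cofactors, 23 were measured, 15 lower and 8 higher, with a median of -0.19, against -0.01 over all genes. *Mgll* was counted as higher (0.13) through a probe not well above background in the control pool. Its other probes had ratios of -0.34, -0.36 and -0.37. With only probes well above background on both arrays, 16 were lower, with a median of -0.23. Over all genes, 51.6% were lower, 5.85% by 1.5-fold, and 6.15% were higher by that size. By 1.5-fold, *Plin4*, a lipid droplet coat protein (-0.63), *Lipe*, hormone-sensitive lipase (-0.63), and *G0s2*, an inhibitor of adipose triglyceride lipase (-0.62), were lower. *Pnpla3*, a lipid droplet acyl hydrolase, was higher at 1.24. The lower ratios were small beside that of *Ces1d*, and with no scaling the median was -0.04 and 0 genes of the list were lower by 1.5-fold, against 3.83% of all genes under that setting.

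Of 23 genes of triacylglycerol synthesis and lipoprotein assembly, 16 were measured, 7 lower and 9 higher, with a median of 0.01. *Dgat2*, which makes triacylglycerol from diacylglycerol, had a processed signal of 5045 in the *H-Bmal1*-/- pool, against 17626 in the control pool, a ratio of -1.96 or 3.88-fold lower. *Mttp*, the microsomal transfer protein that loads lipid onto apolipoprotein B, had 120 in the *H-Bmal1*-/- pool, against 35.5 in the control pool, a ratio of 1.60 or 3.04-fold higher. *Cidea*, a lipid droplet protein, was higher at 0.69. These genes thus moved in both directions, while *Apob* itself was not well above background.

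Other ester, amide and epoxide hydrolases gave little difference as a list. Of 23 genes, 21 were measured, 8 lower and 13 higher, with a median of 0.05. *Tg*, which encodes thyroglobulin and holds an esterase-like domain, was lower at -0.86 and *Pon2*, an intracellular lactonase, higher at 0.60. *Ache*, which encodes acetylcholinesterase, was counted as higher through 1 of its 2 probes, which was not well above background in the control pool. The other probe, measured on both arrays, had a ratio of -0.25. *Lyplal1*, a serine hydrolase of the lysophospholipase-like group, was well above background in the *H-Bmal1*-/- pool only, at least 1.29-fold higher. This bound takes, for the dim array, the faintest spot still counted as well above background there. The KDEL receptors, which return such enzymes to the endoplasmic reticulum, ran between -0.13 for *Kdelr2* and 0.28 for *Kdelr3*, and *Kdelr2* turned to 0.02 with no scaling.

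**Figure D4:**
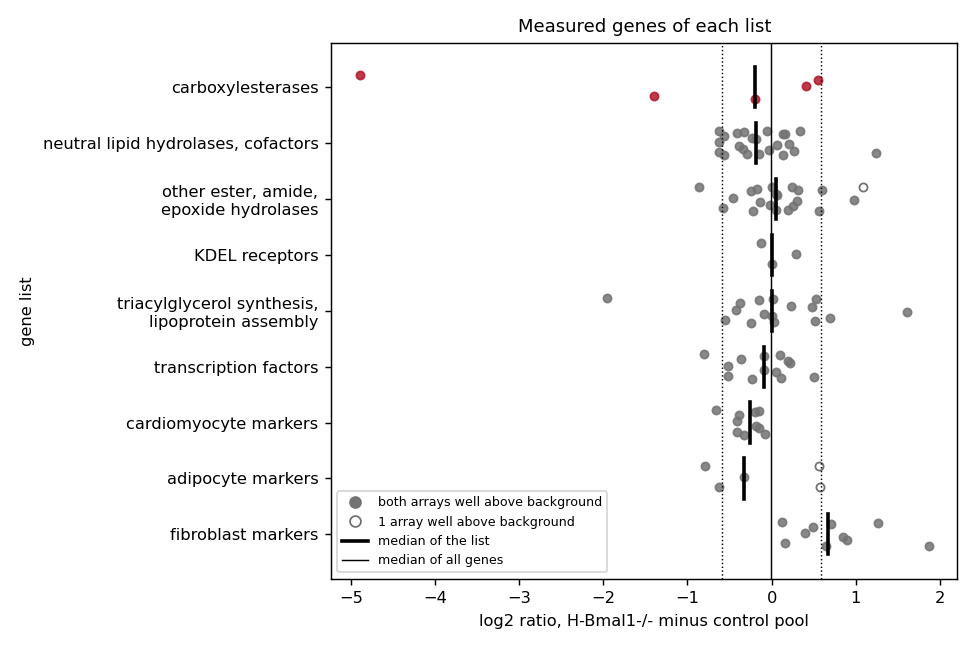
Log2 ratio, *H-Bmal1*-/- minus control pool (horizontal axis), of each measured gene of the lists (rows), with the median of a list as a thick line, the median of all genes as a thin line and 1.5-fold as dotted lines; open points were well above background on 1 array only. The carboxylesterases reach down to -4.90, beyond any gene of the other lists, whose lowest is *Dgat2* at -1.96.

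Markers of cell types were read beside these values. All 10 cardiomyocyte markers were measured and lower, with a median of -0.26, between -0.67 for *Atp2a2* and -0.08 for *Tnnt2*, though only 7 of 10 were lower with quantile normalization or no scaling. Of 11 adipocyte markers, 5 were measured, 3 of them lower, with a median of -0.32. By 1.5-fold 2 were lower (*Cfd* and *Lipe*), against 5.85% of all measured genes. The 2 higher ones, *Plin1* and *Car3*, were well above background in the *H-Bmal1*-/- pool only. With only probes well above background on both arrays, 3 markers were left, all lower, with a median of -0.63. The summed processed signal of the 5 was 229 times the 75th percentile in the *H-Bmal1*-/- pool and 287 times in the control pool. Nearly all of that sum came from *Fabp4*, with a processed signal of 43389 in the *H-Bmal1*-/- pool and 48879 in the control pool, a gene that endothelial cells also express. *Adipoq*, *Cidec*, *Lep*, *Retn*, *Pck1* and *Ucp1* were not well above background on either array. *Cfd* (-0.79) was the lowest, and *Car3*, at least 1.37-fold higher, was well above background in the *H-Bmal1*-/- pool only. Of 10 hepatocyte markers, *Alb*, *Apoa1*, *Cps1* and *Fgb* were not well above background on either array, and the summed signal of the 6 others was 4.19 times the 75th percentile in the *H-Bmal1*-/- pool and 4.45 times in the control pool. All 10 fibroblast markers were higher, with a median of 0.67, between 0.13 for *Dpt* and 1.87 for *Postn*. The part of cell composition in the carboxylesterase values was not tested.

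The directions of the 5 measured members were the same under all 11 other settings tried. Settings on filters, probes or outlier spots could not move *Ces1d*, *Ces1e* or *Ces2g*, each with a single probe. *Ces1d* ran between -4.90 and -4.00 and *Ces1e* between -1.41 and -0.43. *Ces2c* ran between 0.14 and 0.56, *Ces2e* between 0.40 and 0.70, and *Ces2g* between -0.21 and -0.05. The normexp correction gave the value nearest to 0 for *Ces1d*, *Ces1e* and *Ces2c*, as the plot of the settings shows.

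**Figure D5:**
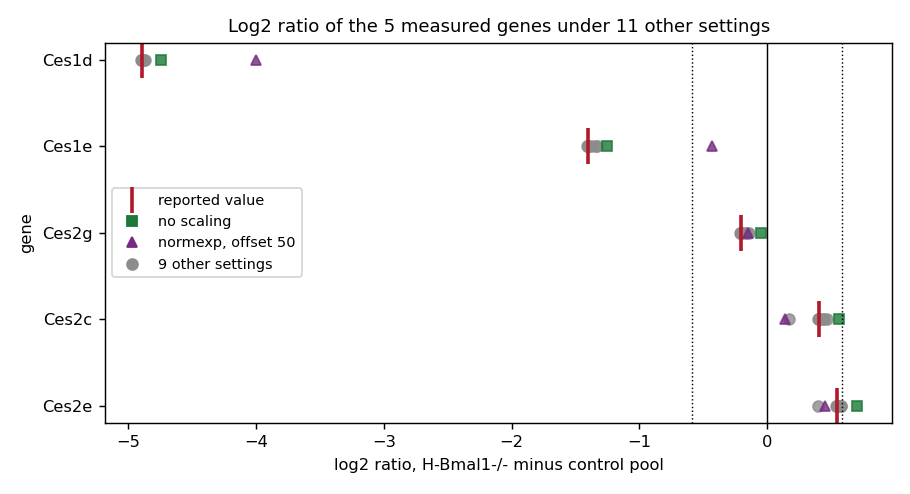
Log2 ratio, *H-Bmal1*-/- minus control pool (horizontal axis), of the 5 measured carboxylesterase genes (rows) as reported (red bar), with no scaling (green square), after a normexp correction (purple triangle) and under 9 other settings (gray), with dotted lines at 1.5-fold. *Ces1d* stays left of -4.00, while *Ces1e* moves to -0.43 under normexp and *Ces2e* to 0.70 with no scaling.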

How the data were processed

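The authors hybridized 1 pool of Cy3-labeled RNA per genotype to Agilent SurePrint G3 Mouse 8x60K arrays and deposited the scanner output. The intensities used here are its processed signals, background-subtracted by Agilent Feature Extraction, linear and not scaled between arrays. The submitters' processing notes give version 10.5.1.1, whereas the file header names 10.10.1.1. The deposited value table held the same intensities times 1 factor per array (4.95 for the *H-Bmal1*-/- and 5.46 for the control array, with medians of 64 and 67.2). How the factor was chosen is not stated, and this table was used as an alternative only.

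Log2 was taken, the 75th percentile over noncontrol spots subtracted, and spots of a probe averaged after 269 outlier spots were left out. A probe was flagged where most of its spots were well above background. The array design is of mm9. Probes were named through their accession in a RefSeq gene table of GRCm38.p6, used for names and gene order only, and promoter coordinates are of GRCm38.p6. A gene is the mean of those probes that 1 or both arrays placed well above background. For genes well above background on 1 array, counts use the bound. Spot errors of the software were propagated to the log2 ratio. They cover the spot alone, and the number of arrays limits the precision.

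The members and the gene lists were chosen with earlier results of these data known. Named genes were the members with every probe, genes of each list at or past 1.5-fold with its lowest and highest member, the lowest and highest marker, the 5 genes nearest in ratio to *Ces1d* (1 of them is not reported here) and the nearest neighbors on the chromosome. The PAR bZIP genes fall outside this rule and were chosen after their values were seen. Of the other marker lists, medians were -0.07 (endothelial, 10 genes measured), -0.18 (smooth muscle and pericyte, 8) and 0.06 (macrophage, 8). Of lung epithelium markers, 4 of 8 were measured, 3 of them on 1 array only, and no median is given. Alternatives included quantile normalization, median scaling over the probes flagged on both arrays, no scaling, E1A spike-in scaling (7 probes), cyclic loess, normexp on the median signal with an offset of 50, 2 other filters, the brightest probe, outlier spots kept, the authors' value table, and sizes of 1.3-fold and 2-fold. The steps were tested on simulated data. Python 3.11.15, numpy 2.4.6, pandas 2.3.3, scipy 1.17.1, matplotlib 3.10.9, R 4.3.3 and limma 3.58.1 were used.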

Additional observations from a re-analysis of the deposited data

How the results depend on the processing

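After the normexp correction *Ces1d* was at -4.00 and 1 member, *Ces1d*, was lower by 1.5-fold, against 1.79% of all genes under that setting. The number of members higher was 1 with no scaling (*Ces2e*), against 9.66% of all genes under that setting. At a size of 1.3-fold it was 2 (*Ces2c* and *Ces2e*). No share of all genes is given at that size, so nothing is read from this count. The other settings left the log2 ratio of *Ces1d* within its spot error and both counts of members as reported. Over all genes, 810 were lower and 852 higher by 1.5-fold as reported, against 248 lower and 369 higher after normexp, 530 lower and 1337 higher with no scaling and 557 lower and 618 higher with only probes well above background on both arrays. After normexp, *Pnpla3* was at 0.34, *Mttp* at 0.81, *Lipe* and *Tg* at -0.43 and *Dgat2* at -1.89. The cause of these shifts was not tested. No paired analysis was possible because each genotype has 1 array, and no array could be left out for the same reason. Signals near 11.1, the lowest counted as well above background, limit *Ces1e* most.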
